A study of Mus musculus with 5 samples.

Results

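Fatty acid oxidation and tricarboxylic acid (TCA) cycle genes were followed in RNA of mouse mitral valve leaflets. The 33 genes were chosen by name, from the carnitine shuttle to malate dehydrogenase, out of 24062 genes in the deposited count table. They were chosen with earlier results of these data known. All 33 had a row, and 32 passed the filter on low counts. Cpt1b did not. The study sequenced 5 libraries to compare leaflets that had lost Ift88, a gene of the transport system that builds cilia, with controls. The library titles name 2 wild-type (WT) and 3 knockout (KO) libraries. All 5 samples are described as carrying NfatC1Cre, a Cre driver of the endocardial lineage, so cells of other origin in a KO leaflet would keep the gene. The genotype descriptions give the floxed allele (Ift88f/f) to WT and the intact one (Ift88+/+) to KO, the reverse of the titles, and the titles were used here. No source used here states the age or the pooling of the animals, or that each library came from a separate animal, so p-values measure the spread between these libraries, which may be technical.

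Fatty acids are the main fuel of heart muscle. They are activated to acyl-CoA at the outer mitochondrial membrane, carried across the inner membrane as carnitine esters, and shortened by repeated rounds of dehydrogenation, hydration, a further dehydrogenation and thiolysis. The acetyl-CoA released, together with that from pyruvate dehydrogenase, enters the TCA cycle, and the electrons pass to the respiratory chain. Heart muscle cells are packed with mitochondria and hold these enzymes in large amounts, whereas the interstitial and endothelial cells of a valve leaflet hold fewer mitochondria.

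Total counts lay between 23361414 and 53789026 per library. Levels are CPM, counts relative to the library total scaled by TMM, and a log2 fold change is that of KO against WT. Ift88 stood at 7.54 and 19.8 CPM in WT replicates 1 and 2 and at 3.0, 3.92 and 0.409 in KO replicates 1, 2 and 3, so its level went with the titles, although it did not pass the test (log2 fold change -2.48, SE 1.13, adjusted p = 0.81, edgeR quasi-likelihood test). Heart muscle transcripts differed widely between libraries. The 24 cardiomyocyte markers summed to 92131 CPM in WT replicate 1, to 209 in WT replicate 2 and to 51678, 38276 and 51228 in the KO replicates. In WT replicate 2 the myoglobin gene Mb had no read, and 23 of the 24 markers were at their lowest. Actc1, cardiac actin, had 31260 and 27.7 CPM in WT, against 16193, 14313 and 17613 in KO. The ventricular light chains Myl3 and Myl2 had 11601 and 8687 CPM in WT replicate 1, 4.25 and 9.19 in WT replicate 2, 4993 and 4503 in KO replicate 1, and 819 and 724, then 685 and 512, in KO replicates 2 and 3. WT replicate 1 was the highest library for 13 of the 24, and some markers ran otherwise, such as the atrial light chain Myl7, chosen after its values were seen, with 556 and 10.1 CPM in WT, against 149, 5081 and 6871 in KO. The summed level of 10 endothelial markers ran the other way within WT, from 331 to 2943 CPM, with 1812, 2858 and 2009 in KO. Tek, Pecam1 and Tie1 had the highest means of the list over the 5 libraries. They had 27.2, 50.3 and 30.6 CPM in WT replicate 1 and 658, 557 and 503 in WT replicate 2. Other markers of the list differed less, such as Emcn with 55.6 and 83.7 CPM in WT. Npr3, with 12.8 and 10.2 CPM in WT, was the 1 marker lowest in WT replicate 2. For 4 of the 10, all 3 KO libraries were above both WT libraries (13.5% of all genes tested). The summed level of 10 valve interstitial markers was 2206 and 4411 in WT and 6724 to 9513 in KO. The matrix genes Postn, Col3a1 and Dcn were highest by their mean. All 3 KO libraries were above both WT libraries for 7 of the 10 (13.5% of all genes tested). Lum, Tcf21 and Pdgfra overlapped with WT. Pdgfra had 30.8 and 405 CPM in WT, against 223, 184 and 233 in KO. Of 10 fat cell markers 3 were tested, Adipoq had no read in any library, and Fabp4, which endothelial cells also express, stood at 556 CPM in WT replicate 1 and between 36.0 and 210 elsewhere. The 7 red cell markers summed to 99.0 and 2.6 CPM in WT, against 34.9, 8.3 and 0 in KO, nearly all of it Alas2. Macrophage markers summed to between 167 and 313 CPM. Of 8 skeletal muscle genes, Myh1, Myh2 and Myh4 had no read in any library, and Ckm and Acta1 are also made by heart muscle.

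Promoter sequence is shown for the genes whose patterns the results turn on, as listed by RefSeq for GRCm38.p6 and cut back to bases that no GENCODE M21 exon covers. Hadha and Hadhb, which encode the alpha and beta subunits of the mitochondrial trifunctional protein, are transcribed away from each other from starts 273 bases apart, and the first sequence is the 85 bases of the stretch between them that no exon covers next to Hadhb (chr5:30155163-30155247, read along the plus strand toward Hadhb). Acadm (chr3:153944644-153944893, minus strand) and Etfa (chr9:55512244-55512493, minus strand) stand for the many members that were high in WT replicate 1 and low in WT replicate 2. Cpt1a (chr19:3323051-3323284, plus strand) stands for the 1 tested member that was lower in WT replicate 1 than in WT replicate 2. Each is written 5′ to 3′ toward the RefSeq start of the gene. For Cpt1a that start is at 3323301, whereas GENCODE M21 begins the gene at 3322334. The Cpt1a stretch therefore lies inside the GENCODE gene, between its exons. Capitals mark exact matches, on either strand, to 3 motifs: AAGGTCA, an extended core site of nuclear receptors, CATGCGC, a core of the site of nuclear respiratory factor 1, and CCAAT.

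Hadha-Hadhb: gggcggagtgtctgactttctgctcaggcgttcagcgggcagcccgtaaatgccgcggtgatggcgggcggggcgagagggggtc

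Acadm: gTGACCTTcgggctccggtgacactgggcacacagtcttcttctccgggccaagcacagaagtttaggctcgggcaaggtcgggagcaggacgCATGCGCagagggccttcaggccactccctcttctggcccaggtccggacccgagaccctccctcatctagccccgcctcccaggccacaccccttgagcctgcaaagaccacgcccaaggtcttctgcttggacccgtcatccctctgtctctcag

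Etfa: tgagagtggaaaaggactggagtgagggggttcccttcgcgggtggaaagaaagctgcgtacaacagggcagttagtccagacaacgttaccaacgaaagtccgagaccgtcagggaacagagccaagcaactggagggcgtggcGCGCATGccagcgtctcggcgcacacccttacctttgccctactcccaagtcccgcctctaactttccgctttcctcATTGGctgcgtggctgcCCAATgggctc

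Cpt1a: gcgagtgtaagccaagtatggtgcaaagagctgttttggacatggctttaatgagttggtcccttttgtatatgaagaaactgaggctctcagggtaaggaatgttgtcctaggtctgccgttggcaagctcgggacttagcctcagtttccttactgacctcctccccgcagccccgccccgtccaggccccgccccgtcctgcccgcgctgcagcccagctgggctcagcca

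In Acadm the first capitals are AAGGTCA on the opposite strand and the second are CATGCGC. In Etfa the order is CATGCGC on the opposite strand, CCAAT on the opposite strand and CCAAT. The 85 bases between Hadha and Hadhb held none of them. RefSeq windows were found for 29 of the 33 members, and motifs were counted in the 250 bases before each start. AAGGTCA lay in 1 of the 29 (3.45%) and in 4.7% of 27025 genes with a window. The full element of the estrogen-related receptors, TCAAGGTCA, which contains it, lay in 0 of the 29 and in 0.422% of genes. CATGCGC lay in 4 of the 29 (Acadm, Etfa, Etfdh and Ogdh, 13.8%) and in 3.68% of genes, and CCAAT in 13 (44.8%, Cpt1a among them just past the end of the printed stretch) and in 37.5%. These are matches of letters and not sites of binding.

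The 2 WT libraries stood at opposite ends of the range of nearly all members, with the KO libraries between them. In 26 of the 32 tested members, every KO library lay above WT replicate 2 and below WT replicate 1, an order held by 8.41% of all 14244 genes tested. The opposite order, with WT replicate 2 on top, was held by 0 members and 8.94% of genes. WT replicate 1 was the highest of the 5 libraries for 29 members (25.6% of genes) and WT replicate 2 the lowest for 28 (22.2% of genes). The level in WT replicate 1 was at least 2 times that in WT replicate 2 for 29 members (26.7% of genes). This ratio had a median of 4.66 over the members and 0.982 over all genes. It ran from 1.56 for Eci2 to 17.1 for Idh3a, with 0.448 for Cpt1a. The part of the heart muscle transcripts in these differences was not tested. In bulk RNA, fewer cells of a type and less RNA per cell cannot be told apart.

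**Figure D1:**
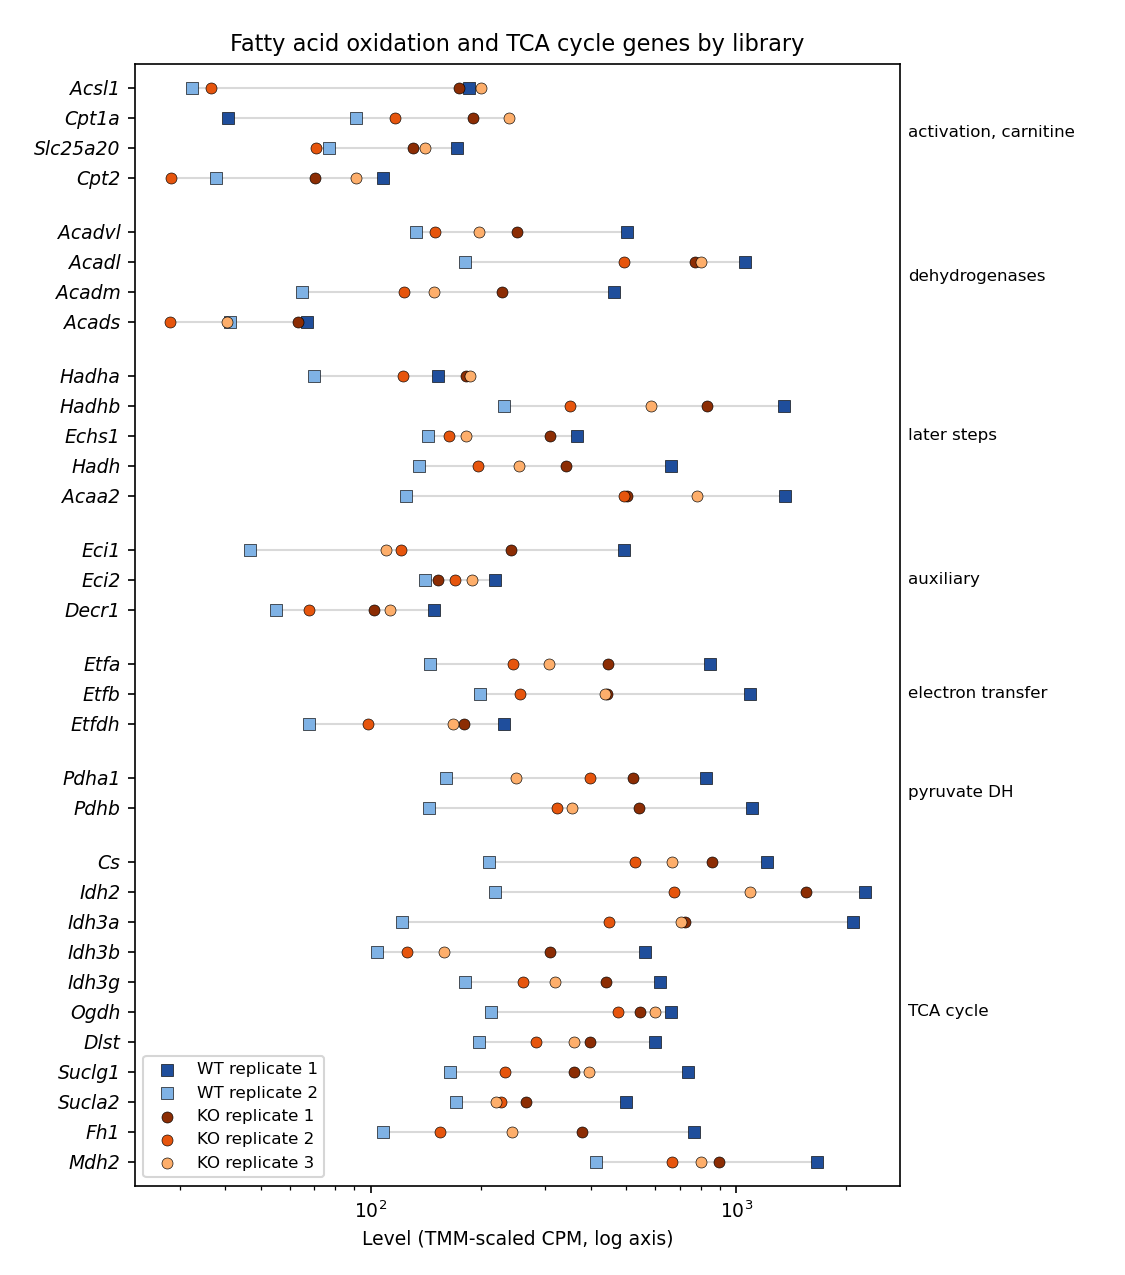
Levels of the 32 tested genes by library and role (log axis, TMM-scaled CPM). Squares are the WT libraries and circles the KO libraries, single values with no error bars, and grey lines span the range. For 26 genes the 3 circles lie between the light square (WT replicate 2) and the dark square (WT replicate 1), and Cpt1a alone has its dark square at the left end.

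**Figure D2:**
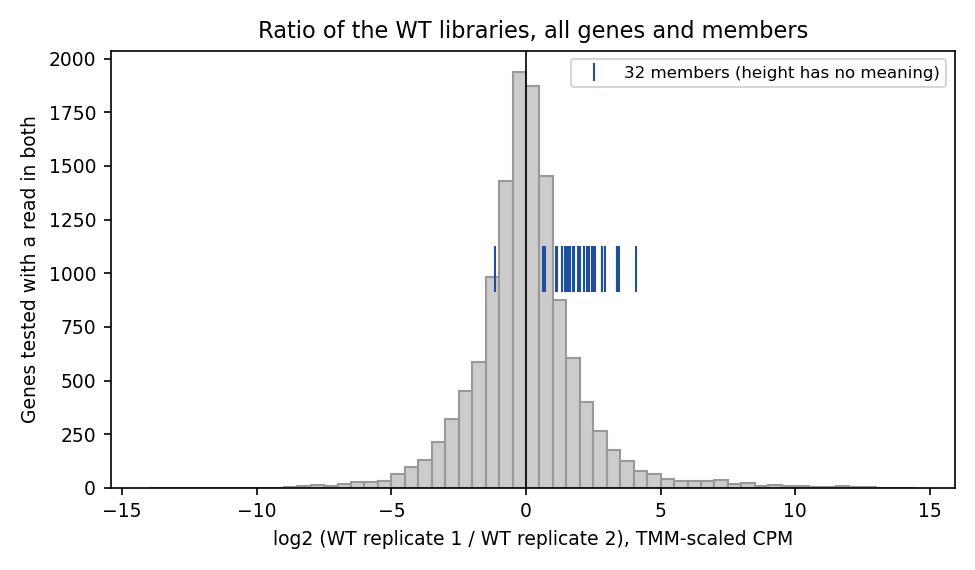
Log2 ratio of WT replicate 1 to WT replicate 2 for the 12540 tested genes with a read in both (grey histogram) and for the 32 members (blue ticks, whose height has no meaning). The ticks lie to the right of 0 for 31 members and to the left for Cpt1a.

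No member passed the edgeR quasi-likelihood test at an adjusted p of 0.05 over all genes (0 of 32, 0% of genes, smallest adjusted p = 0.81), nor did any under DESeq2 (smallest 0.31, 218 genes called in all) or limma-voom (smallest 0.706, 0 genes called). Only Cpt1a had an unadjusted p under 0.05 (1 member, 5.84% of genes). All 3 KO libraries exceeded both WT libraries for 1 member, again Cpt1a (13.5% of genes), and were below both for 0 (11.1%). A positive log2 fold change was found for 5 members (49.4% of genes) and a negative one for 27, with a median of -0.31 over the members and -0.01 over all genes. The authors' deposited table gives an adjusted p to 32 of these genes, and 0 were under 0.05 (smallest 0.353, Cpt1a). The direction of the members depended on which WT library entered the fit. Without WT replicate 2, the library with hardly any heart muscle transcripts, 30 members had a negative fold change. Their median was -1.05, against 0.25 over all genes, of which 57.1% were positive. Without WT replicate 1 all 32 were positive (55.2% of all genes), with a median of 1.04 against 0.15. Members called were 0 in both fits (1.6% of genes without WT replicate 1), with smallest adjusted p-values of 0.113 and 0.0634, both for Idh3a, in the quasi-likelihood test. The unadjusted p was under 0.05 for 18 members without WT replicate 2 (16.3% of genes) and for 14 without WT replicate 1 (13.2% of genes). A code of unstated meaning is common to 3 titles, those of WT replicate 1, KO replicate 1 and KO replicate 2. Within those 3 libraries the members' median was -1.02, with 1 positive (56.4% of all genes). Each of these fits holds 1 WT library, whose spread is taken to be that of the KO libraries.

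**Figure D3:**
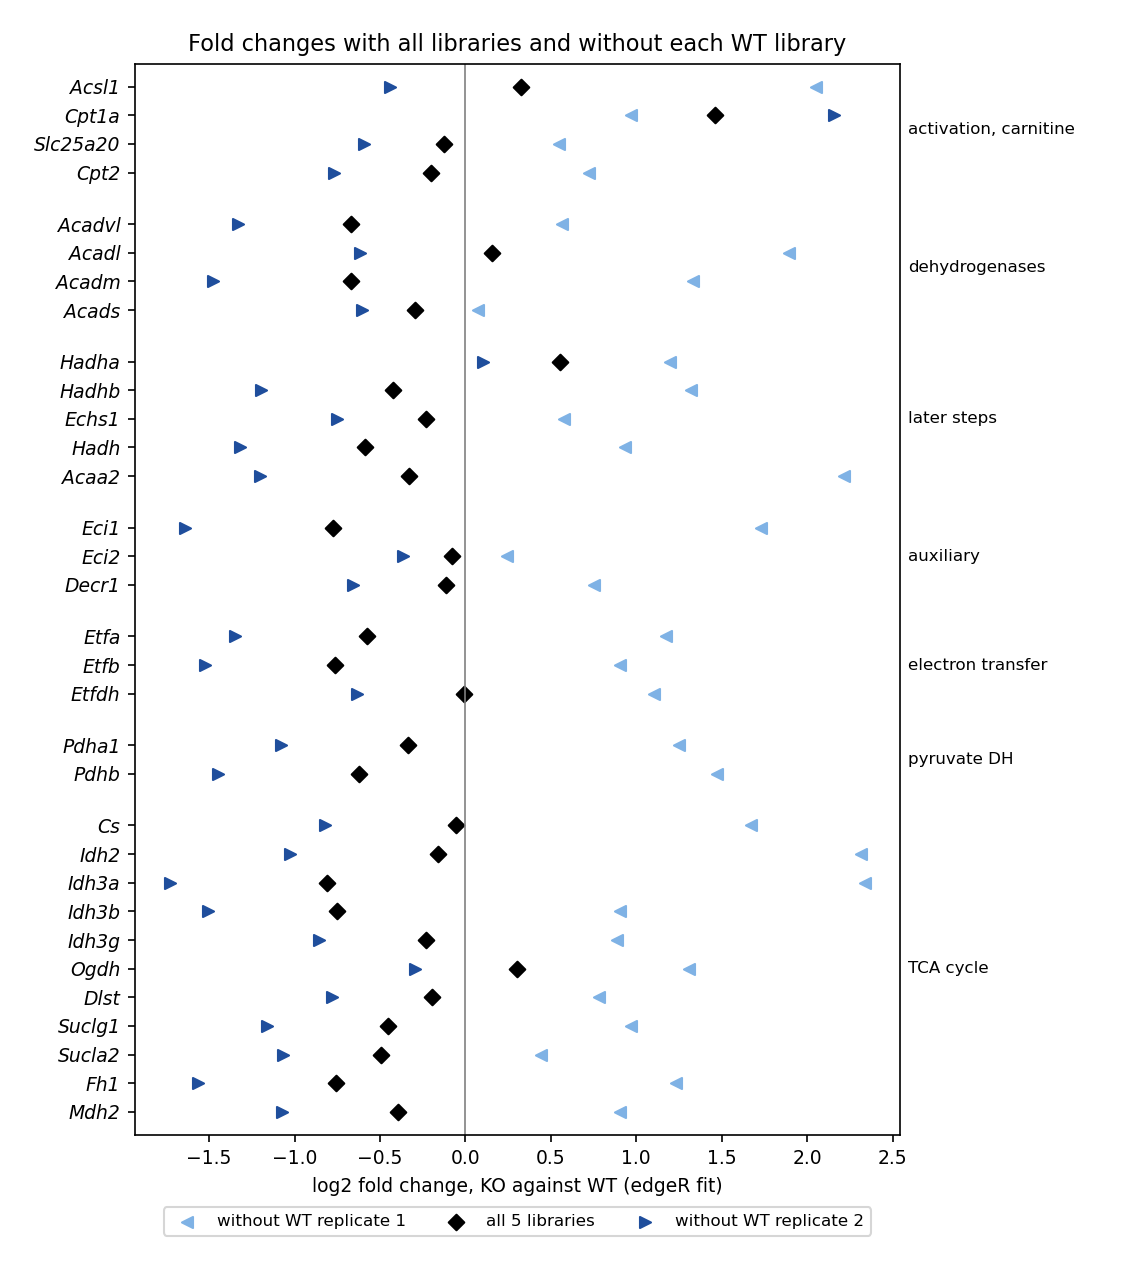
Log2 fold change of KO against WT for the 32 tested genes with all 5 libraries (black diamonds), without WT replicate 1 (light triangles) and without WT replicate 2 (dark triangles), with no error bars. The light triangles all lie above 0 and the dark ones below 0, with the exceptions of Cpt1a and Hadha.

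The members' summed level was, like that of the cardiomyocyte markers, highest in WT replicate 1 and lowest in WT replicate 2. The members summed to 23081 CPM in WT replicate 1, 4426 in WT replicate 2 and 13400, 8126 and 11331 in KO replicates 1, 2 and 3, which is between 0.475 and 1.93% of all reads. Per 100 CPM of cardiomyocyte markers the members had 25.1 CPM in WT replicate 1 and 25.9, 21.2 and 22.1 in the KO replicates, and 2121 in WT replicate 2. Within KO, replicate 2 was the lowest for 28 of the 32 members, and replicate 1 was the highest for 21 and replicate 3 for 11. These orders within KO were not counted over all genes tested. KO replicate 2 also had the lowest sum of cardiomyocyte markers in KO. The coefficient of variation within KO had a median of 28.5% over the members and ran from 10.5% for Sucla2 to 64.2% for Acsl1. The summed level of the fatty acid oxidation genes, with electron transfer, was 81.8 per 100 of the TCA cycle genes in WT replicate 1, 95.9 in WT replicate 2 and 83.5, 81.7 and 93.0 in KO.

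**Figure D4:**
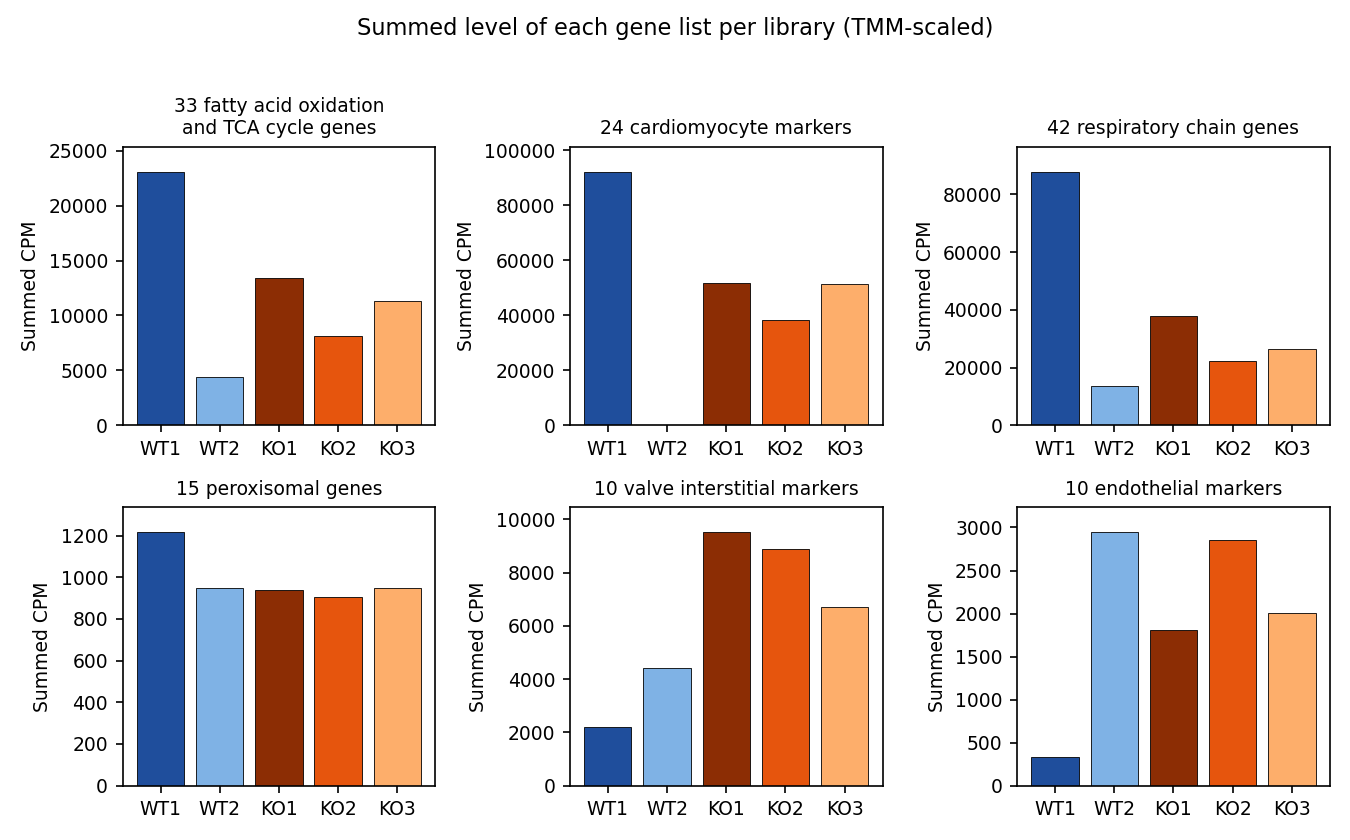
Summed TMM-scaled CPM of 6 gene lists in each library, each panel on its own axis from 0. Bars are single libraries, with no error bars. The 33 genes, the cardiomyocyte markers and the respiratory chain genes are highest in WT replicate 1 and lowest in WT replicate 2, the peroxisomal genes lie between 906 and 1215 in all 5, and the endothelial markers are lowest in WT replicate 1.

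Fatty acids are first activated by Acsl1, a long-chain acyl-CoA synthetase of muscle, fat and liver. Its levels were 186 and 32.5 CPM in WT replicates 1 and 2, against 175, 36.5 and 200 in KO replicates 1, 2 and 3. WT replicate 2 and KO replicate 2 were low and the other libraries high, so the groups overlapped (log2 fold change 0.33, SE 0.94). Cpt1a encodes the carnitine palmitoyltransferase 1 of liver and many other tissues, which forms acylcarnitine at the outer membrane and sets the rate of entry. It had 40.8 and 91.0 CPM in WT, against 190, 116 and 239 in KO. All 3 KO libraries were above both WT libraries, with a WT mean of 65.9 ± 35.5 (SD, n = 2) and a KO mean of 182 ± 61.8 (SD, n = 3). Its fold change on the log2 scale was 1.46 (SE 0.52), with an unadjusted p of 0.0295 and an adjusted p = 0.81 in the quasi-likelihood test. Leaving out WT replicate 1 gave 0.97 and leaving out WT replicate 2 gave 2.16, so its sign was the same in both.

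Cpt1b, the muscle form of the same enzyme, could not be measured. It had 4 and 0 reads in WT and 0, 11 and 0 in KO, while Cpt1a had at least 40.8 CPM in each library. In KO replicate 2 the 11 reads are 0.259 CPM (95% exact Poisson interval 0.13 to 0.464), and the 0 reads of WT replicate 2 allow a level of up to 0.052 CPM by a limit of 3 reads, both for counting error only. In GENCODE M21 on GRCm38, Cpt1b lies on chromosome 15 from 89416405 to 89425863, and 81.4% of its exonic bases are also exons of Gm44502. No source used here names the authors' annotation, and whether reads were lost to that overlap was not tested. No statement on the ratio of the muscle and liver forms was made. The 2 later proteins of the shuttle were the carrier of acylcarnitine, Slc25a20, and Cpt2, which returns the acyl group to CoA inside the mitochondrion. They had log2 fold changes of -0.12 and -0.20, and both were lowest in KO replicate 2 (70.9 and 28.3 CPM) and highest in WT replicate 1 (172 and 108).

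The acyl-CoA dehydrogenases open each round of oxidation and differ in the chain length they accept. Acadl, the long-chain enzyme, was the most abundant of them. It had 1058 and 181 CPM in WT, against 772, 494 and 801 in KO. The KO libraries lay between the WT libraries (log2 fold change 0.15, SE 0.73). Acadvl, the very-long-chain enzyme of the inner membrane, had 502 and 133 CPM in WT, against 251, 150 and 198 in KO (log2 fold change -0.67, SE 0.59). In GENCODE M21, 42.9% of its exonic bases are shared with exons of Dvl2, and reads there cannot be told apart without strand. Acadm, the medium-chain enzyme whose promoter is shown above, had 464 and 65.0 CPM in WT, against 228, 123 and 149 in KO (log2 fold change -0.67, SE 0.78). Its WT libraries differed 7.14-fold. Acads, the short-chain enzyme, had the narrowest range of the 4, from 28.2 to 67.1 CPM (log2 fold change -0.30). Per base of transcript, Acadl was 2.38 and 1.55 times Acadvl in WT replicates 1 and 2, and 3.48, 3.72 and 4.58 times in KO. All 3 KO libraries were above both WT libraries in this ratio of levels per length, which was picked out after its values were seen.

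The trifunctional protein carries out the next steps for long chains, with the hydratase and the second dehydrogenase on the alpha subunit (Hadha) and the thiolase on the beta subunit (Hadhb). Hadhb had 1349 and 232 CPM in WT, against 833, 351 and 582 in KO (log2 fold change -0.42, SE 0.76). Hadha had 153 and 70.0 CPM in WT, against 182, 122 and 187 in KO (log2 fold change 0.56, SE 0.45). For Hadhb the KO libraries lay between the WT libraries, and for Hadha 2 of the 3 lay above both. The 2 genes share the stretch between their starts, part of which is printed above. Per base of transcript Hadhb was 8.07 times Hadha in WT replicate 1 and 3.03, 4.18, 2.63 and 2.85 times in WT replicate 2 and the KO replicates. WT replicate 1 stood apart from the other 4 in this ratio. For shorter chains, Hadh, the 3-hydroxyacyl-CoA dehydrogenase, had 661 and 136 CPM in WT, against 343, 197 and 255 in KO (log2 fold change -0.59, SE 0.66). Echs1, the short-chain enoyl hydratase, ranged from 143 to 367 CPM, and Acaa2, the thiolase that releases acetyl-CoA, from 124 to 1361. Acaa2 differed 10.9-fold between the WT libraries, and its log2 fold change was -0.33 with all 5 libraries, 2.22 without WT replicate 1 (adjusted p = 0.0683, quasi-likelihood test) and -1.20 without WT replicate 2 (adjusted p = 0.177).

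Unsaturated fatty acids need auxiliary enzymes that move or reduce double bonds. Eci1, a mitochondrial enoyl-CoA isomerase, had 493 and 46.8 CPM in WT, against 242, 121 and 110 in KO (log2 fold change -0.77, SE 0.91). Eci2, an isomerase found in both mitochondria and peroxisomes, had 219 and 141 CPM in WT, against 153, 170 and 189 in KO (log2 fold change -0.08, SE 0.34). The WT libraries thus differed 10.5-fold for Eci1 and 1.56-fold for Eci2, with the KO libraries between them in both. Decr1, the dienoyl-CoA reductase, ranged from 54.9 to 149 CPM.

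Electrons from the dehydrogenases pass to the electron transfer flavoprotein and from it to the respiratory chain. Etfb, its beta subunit, had 1089 and 199 CPM in WT, against 442, 256 and 438 in KO (log2 fold change -0.77, SE 0.71). Etfa, its alpha subunit, had 846 and 145 CPM in WT, against 447, 245 and 307 in KO (log2 fold change -0.57, SE 0.72). Both subunits had the same order of WT and KO libraries, with KO between. Per base of transcript Etfb was between 1.54 and 2.22 times Etfa in the 5 libraries, a far narrower range than that of Hadhb and Hadha, although 58.2% of the exonic bases of Etfb are shared with Gm45233 and Mir7051. Etfdh, the oxidoreductase that hands the electrons to ubiquinone, had a log2 fold change of -0.01 (range 67.9 to 231 CPM).

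Pyruvate dehydrogenase makes acetyl-CoA from pyruvate, the end product of glycolysis. Pdhb, its E1 beta subunit, had 1106 and 144 CPM in WT, against 541, 323 and 355 in KO (log2 fold change -0.62, SE 0.79). Pdha1, its E1 alpha subunit, had 824 and 161 CPM in WT, against 522, 398 and 250 in KO (log2 fold change -0.34, SE 0.71). KO lay between the WT libraries for both. Per base of transcript Pdhb was between 0.972 and 1.7 times Pdha1, although 16.1% of the exonic bases of Pdha1 are shared with Map3k15.

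All 11 TCA cycle genes had their 3 KO libraries between WT replicate 2, the lowest, and WT replicate 1, the highest. Idh2, the NADP-dependent isocitrate dehydrogenase of mitochondria, was the most abundant by its mean over libraries. It had 2251 and 218 CPM in WT, against 1549, 675 and 1091 in KO (log2 fold change -0.16, SE 0.91). Sucla2, the ATP-forming beta subunit of succinyl-CoA ligase, had 497 and 171 CPM in WT, against 266, 227 and 219 in KO (log2 fold change -0.49, SE 0.49). The WT mean was 334 ± 231 (SD, n = 2) and the KO mean 237 ± 24.9 (SD, n = 3), so the WT spread exceeded the difference. Idh3b, a regulatory subunit of the NAD-dependent isocitrate dehydrogenase, had 562 and 104 CPM in WT, against 309, 125 and 158 in KO (log2 fold change -0.75, SE 0.75). The catalytic subunit of that enzyme, Idh3a, had the largest ratio of highest to lowest library of all tested members, from 121 CPM in WT replicate 2 to 2079 in WT replicate 1, with 725, 448 and 706 in KO. Per base of transcript Idh3a was 2.72 times its partner Idh3g in WT replicate 1, 0.541 times in WT replicate 2 and 1.33, 1.38 and 1.78 times in KO. It was 2.94 times Idh3b in WT replicate 1, 0.927 times in WT replicate 2 and 1.87, 2.84 and 3.55 times in KO. The subunit genes thus did not keep a fixed ratio, and the order of libraries differed between the 2 ratios. The log2 fold changes of the other 7 were -0.23 for Idh3g, -0.06 for citrate synthase (Cs), which starts the cycle, 0.30 for Ogdh and -0.20 for Dlst, both of the oxoglutarate dehydrogenase complex, -0.46 for Suclg1, the alpha subunit of succinyl-CoA ligase, -0.76 for fumarase (Fh1) and -0.39 for malate dehydrogenase (Mdh2).

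Per kilobase of the longest transcript, Idh2 (646 CPM per kb, mean of 5 libraries), Mdh2 (552) and Etfb (543) had the highest levels of the tested members, and Acsl1 (22.2), Acads (23.8) and Cpt2 (28.3) the lowest. Idh2 ranked first in WT replicate 1 and in KO replicates 1 and 3, and Mdh2 in WT replicate 2 and KO replicate 2. Idh3a ranked between 5 and 8 of 32 in those libraries with heart muscle transcripts and 19 in WT replicate 2. Cpt1a ranked 32 in WT replicate 1 and between 24 and 28 in the other libraries.

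By role, the median log2 fold change was 0.10 for activation and the carnitine shuttle, -0.48 for the acyl-CoA dehydrogenases, -0.33 for the later steps, -0.11 for the auxiliary enzymes, -0.57 for electron transfer, -0.48 for pyruvate dehydrogenase and -0.39 for the TCA cycle. Every one of these medians was positive without WT replicate 1 (0.75 to 1.36) and negative without WT replicate 2 (-1.35 to -0.52).

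The other genes of the pathway were taken from 7 lists with 104 genes, of which 100 were tested. None passed the edgeR quasi-likelihood test, 3 of the 100 had an unadjusted p under 0.05 (5.84% of all genes), and 37 had KO between a low WT replicate 2 and a high WT replicate 1 (8.41% of all genes). The lists on pyruvate entry and on the rest of the TCA cycle resembled the members, with 11 of 15 and 12 of 17 genes in that order and medians of -0.71 and -0.50. Mpc2, a subunit of the mitochondrial pyruvate carrier, had 715 and 115 CPM in WT, against 230, 146 and 175 in KO, and Sdhaf1, an assembly factor of succinate dehydrogenase, at 68.3 and 38.9 in WT and 27.5, 23.1 and 39.0 in KO. Pdpr, a regulator of pyruvate dehydrogenase phosphatase, had 7.61 and 10.3 CPM in WT, against 22.6, 9.98 and 27.7 in KO. Aco1, the cytosolic aconitase and iron regulatory protein, had 50.6 and 53.2 CPM in WT, against 92.5, 67.4 and 97.4 in KO, above both (log2 fold change 0.72, SE 0.35, unadjusted p = 0.0804 in the quasi-likelihood test).

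Among genes of fatty acid uptake and activation, Acsl4, a synthetase that prefers arachidonic acid, had 17.6 and 32.1 CPM in WT, against 34.3, 38.8 and 30.2 in KO. Acacb, whose product malonyl-CoA inhibits carnitine palmitoyltransferase 1, had 10.1 and 0 CPM in WT, against 19.8, 14.6 and 24.9 in KO, above both. It was called without WT replicate 1 (adjusted p = 0.0126, edgeR quasi-likelihood test), where the remaining WT library had no read of it. The list's median was -0.19 over 14 genes, with 4 in the order of most members. Of 19 other mitochondrial acyl-CoA enzymes 4 were in that order (median -0.23). Hibadh, of valine breakdown, had 525 and 130 CPM in WT, against 220, 155 and 169 in KO. Pcca, a subunit of propionyl-CoA carboxylase, had 56.8 and 66.9 CPM in WT, against 27.9, 34.5 and 7.9 in KO, below both (log2 fold change -1.40, SE 0.64, unadjusted p = 0.0702 in the quasi-likelihood test).

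Peroxisomal beta-oxidation genes differed less between the WT libraries than the members did. The 15 genes of the list summed to 1215 and 948 CPM in WT, against 939, 906 and 948 in KO, and the ratio of WT replicate 1 to WT replicate 2 had a median of 1.18 over the 13 tested, against 4.66 for the members. Of these 13, 1 had the order of most members. Amacr, a racemase of branched acyl-CoA, had 35.9 and 31.3 CPM in WT, against 14.6, 13.4 and 22.4 in KO, below both (log2 fold change -1.0, SE 0.46, unadjusted p = 0.0714 in the quasi-likelihood test). Ech1, an isomerase of dienoyl-CoA, had 373 and 150 CPM in WT, against 200, 154 and 153 in KO.

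Of 18 transcriptional regulators of these genes, 4 had the order of most members, 3 were above both WT libraries in KO (13.5% of all genes) and 3 below (11.1% of all genes). Klf15, a factor that promotes fatty acid and amino acid use in heart and muscle, had 25.8 and 24.9 CPM in WT, against 9.86, 11.2 and 7.08 in KO. All 3 KO libraries were below both WT libraries, which lay close together (log2 fold change -1.43, SE 0.51, unadjusted p = 0.0301, adjusted p = 0.81 in the quasi-likelihood test). Ncor1, a corepressor of nuclear receptors, had 23.4 and 15.9 CPM in WT, against 38.7, 75.1 and 43.9 in KO, above both (log2 fold change 1.42, SE 0.49, unadjusted p = 0.0262, adjusted p = 0.81).

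Many genes of related groups, but not all, held the same order of libraries, against 8.41% of all genes tested. KO lay between a low WT replicate 2 and a high WT replicate 1 for 35 of 42 respiratory chain and ATP synthase genes, for 12 of 16 tested glycolysis genes and for 13 of 24 cardiomyocyte markers. The median ratio of WT replicate 1 to WT replicate 2 was 6.09 for the respiratory chain, 7.66 for glycolysis and 359 for the cardiomyocyte markers. The median log2 fold changes were -0.84, -0.27 and 0.38, and without WT replicate 2 they were -1.62, -1.05 and -0.59, where the members had -1.05. Without WT replicate 1 they were 0.98, 1.71 and 8.66, where the members had 1.04. These groups are compared by their values alone.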

How the data were processed

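RNA of mitral leaflets was extracted on RNeasy columns, treated with DNase and made into libraries with the SMART-Seq v4 kit, per the labels' protocols. The kit does not mark strand. The submitters' processing notes list FastQC 0.11.5, cutadapt 1.11, HTSeq, DESeq2, and mm10 and GRCm38 as builds. The aligner was not given in the sources used here, nor was the annotation. The deposited table holds raw counts for 24062 genes, with the authors' log2 fold changes and adjusted p-values per the file headers.

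Groups came from the titles. Replicate numbers follow the order of deposit and pair nothing. Any 2 libraries had the same count for at most 2.752% of the genes tested. Counts of 5 libraries were fitted with edgeR 4.0.16 in R 4.3.3 (filterByExpr, TMM, robust quasi-likelihood F test, two-sided), with Benjamini-Hochberg adjustment over 14244 genes. The script was tested on simulated data. DESeq2 1.42.0 and limma-voom (limma 3.58.1) were alternatives. SE is the fold change over the root of F. Lengths and exon overlap came from GENCODE M21 (22750 symbols matched) and promoters from RefSeq GRCm38.p6. Levels per length use the longest transcript. Values of KO and WT are means ± SD. Poisson intervals cover counting error only, since reads carry no molecular identifiers.

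The members and gene lists were chosen with earlier results of these data known. Per-library values are given for every called member of each role, or else the 2 with the smallest p and the most abundant one, and for the 2 genes with the smallest p in each other list, 1 of which is not reported here gene by gene. Others are given by range, by their extremes or by log2 fold change alone. Idh3a, Acaa2, Myl7 and the ratio of Acadl to Acadvl were singled out after their values were seen and go beyond that rule. The other ratios per base of transcript also go beyond it.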

Additional observations from a re-analysis of the deposited data

How the results depend on the processing

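The number of members called was 0 in every alternative tried. The number of genes called over all genes was 0 in the main fit and 218 with DESeq2, and between 0 and 245 when a library was left out (245 without WT replicate 1). The members' median log2 fold change, -0.31, lay between -1.05 (without WT replicate 2) and 1.04 (without WT replicate 1) when a library was left out. In the other alternatives it was between -1.02, with only the libraries of 1 title code, and 0.02, with limma-voom. Without TMM the median of all genes moved from -0.01 to 0.10, and 13 members were positive and 19 negative, against 5 and 27. With limma-voom 17 were positive and 15 negative.

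Signs of single genes turned mostly with the WT libraries. With a library left out, and with the lowest value always without WT replicate 2 and the highest without WT replicate 1, the log2 fold changes ran from -0.62 to 1.9 for Acadl, -1.48 to 1.33 for Acadm, -1.33 to 0.56 for Acadvl, -0.44 to 2.05 for Acsl1, -1.15 to 0.14 for Ech1, -1.64 to 1.73 for Eci1, -0.36 to 0.24 for Eci2, -1.35 to 1.17 for Etfa, -1.52 to 0.90 for Etfb, -1.32 to 0.94 for Hadh, -1.19 to 1.32 for Hadhb, -1.53 to 0.45 for Hibadh, -1.03 to 2.32 for Idh2, -1.51 to 0.90 for Idh3b, -1.96 to 0.65 for Mpc2, -1.08 to 1.25 for Pdha1, -1.44 to 1.47 for Pdhb and -1.07 to 0.44 for Sucla2. Cpt1a (0.97 to 2.16), Hadha (0.10 to 1.20), Klf15, Ncor1, Pcca, Amacr and Aco1 did not turn there. Acacb was called without WT replicate 1 only (adjusted p = 0.0126, edgeR quasi-likelihood test), where the remaining WT library had no read of it. Other reversals were Eci2 at 0.0806 and Idh2 at 0.11 without TMM, Hadhb at 0.014, Eci1 at 0.0466, Pdhb at 0.0254, Pdha1 at 0.0714 and Idh2 at 0.61 with limma-voom, Acsl1 at -0.82, Acadl at -0.74 and Hadha at -0.0054 in the 3 libraries sharing a title code, Idh2 at 0.22 with that code as a covariate, and Acsl1 at -0.28, Idh2 at 0.0447 and Acsl4 at -0.0064 with the trend with transcript length removed. Leaving out a KO library also turned Idh2 (0.0999 without KO replicate 2) and Acsl1 (-0.0498 without KO replicate 3). The cause of these changes was not tested.

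The SD of the members' median level between replicates was 0.90 on the log2 scale, larger than their median difference. Every tested member had at least 990 reads in each library, so that spread limits the comparison more than counting error does. No paired analysis was possible because the replicate numbers follow the order of deposit and pair no libraries.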
